A study of Mus musculus with 1 sample.

Results

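The cells described here were 250 tumor macrophages of a control MC38 tumor pool with high Cxcl9, Ifit2 and Ifit3 transcripts. They were 22.5% of the 1113 macrophages (95% exact Clopper-Pearson interval 20.04 to 25.03%) and 5.39% of the 4640 cells that passed the filters, out of 5307 called cells. A macrophage had, per 10000 unique molecular identifiers (UMIs, distinct captured transcripts) of the cell, at least 10 of C1qa, C1qb and C1qc, at least 5 of Tyrobp and Fcer1g and under 1 of the tumor cell genes Rhox5 and Shisal2b, and it had under 3 UMIs of the proliferation genes Mki67 and Top2a. Members were the top 25% of macrophages by the sum of Cxcl9, Ifit2 and Ifit3 per 10000 UMIs, without those in the top 25% by Arg1, Spp1 and Mmp12. The measured values of these genes chose the cells, and their levels are given below only as a description.

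Interferons are secreted signals that act through JAK kinases and STAT transcription factors. Type I interferons drive the factor ISGF3, which binds the interferon-stimulated response element (ISRE), whereas interferon gamma, made mainly by T and NK cells, acts through the gamma-activated site (GAS). In macrophages both raise antiviral proteins such as the Ifit family, and interferon gamma in particular raises the T cell-attracting chemokine Cxcl9, guanylate-binding proteins and MHC class II.

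The study asked how the V-ATPase subunit Atp6v0a1 of colorectal cancer cells affects immune cells in the tumor. MC38 is a murine colon adenocarcinoma line, and the control cells carried a non-targeting shRNA (shNTC) according to the methods, while the sample itself bears the genotype WT and no shRNA name. Tumors grew in female C57BL/6J hosts with intact immunity, for which the methods give an age of 4 to 6 weeks. Cells of 5 tumors were mixed in equal proportions and sequenced as 1 library with 10x Genomics 3' v3.1 chemistry, without a tag for the tumor of origin, and the knockdown pool was not analysed here. The deposited label calls the cells epithelial, but the pool held immune and stromal cells too. There were no replicates, so the values have no spread between mice and no test was run. The intervals are 95% and cover counting error only.

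The library held 106631000 UMIs over 32285 genes, between 511 and 231902 per called cell. The 667 cells that were left out exceeded 20% mitochondrial UMIs, and none fell short of 200 detected genes. The members had a median of 8012 UMIs and the other 863 macrophages of 8521. Of these others, 584 were high in neither score (median 7406 UMIs), 250 were high for Arg1, Spp1 and Mmp12 only (median 10857), and 29 were high in both.

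The transcripts that chose the cells were unequal in weight. Cxcl9 supplied 88.1% of the 7977 UMIs of the members' score, Ifit3 6.87% and Ifit2 5.01%. The level of Cxcl9 was 3381 counts per 1000000 UMIs (CPM; 3303 to 3461) in members and 326 CPM in the other macrophages. Ifit2, which binds RNA and restrains translation, stood at 192 against 54.2 CPM, and Ifit3, its partner protein, at 264 against 84.2 CPM. Arg1, the arginine-degrading enzyme of alternatively activated macrophages, stood at 144 against 1344 CPM, Spp1 (osteopontin) at 61.1 against 811 CPM and the elastase Mmp12 at 10.6 against 346 CPM, since high cells were left out.

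The score formed a continuous range, so the members are a slice of it and not a separate type. It was 0 in 297 macrophages (26.7%), had a median of 3.90 per 10000 over all macrophages, and ran from 15.6 to 148 with a median of 29.9 among the members. The 3 members just inside the limit scored 15.6, 15.8 and 15.9 and the 3 cells just outside it each scored 15.5. A total of 54 macrophages lay within 10% of the limit, and 49 members were above 3 times it.

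**Figure D1:**
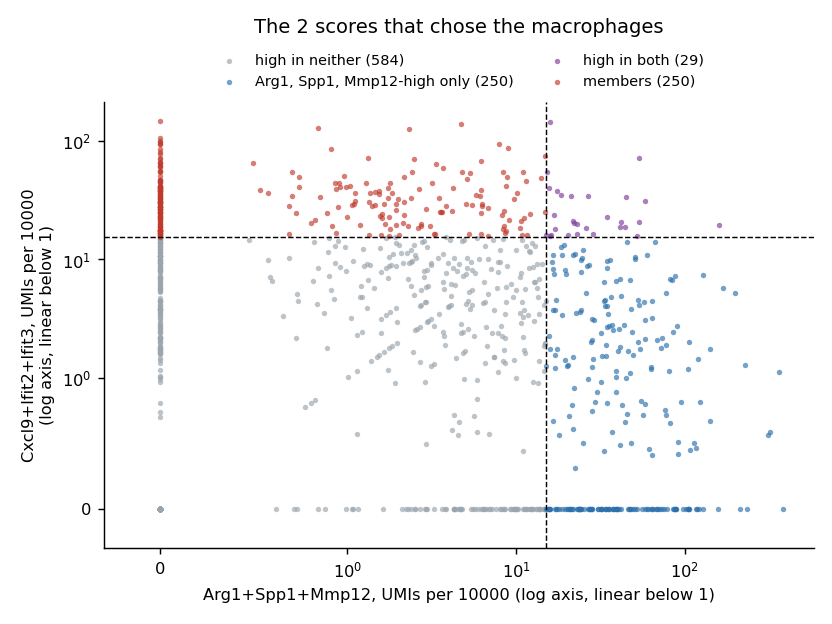
Each point is 1 of 1113 macrophages. The horizontal axis gives Arg1, Spp1 and Mmp12 and the vertical axis Cxcl9, Ifit2 and Ifit3, both as UMIs per 10000 on a log axis that is linear below 1, and the dashed lines are the limits of the top 25% at 15 and 15.6. The 250 members form the upper left field, which passes into the 584 cells below it without a gap.

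The label of interferon-response macrophages was read beside further genes. C1qa, a complement subunit of tissue macrophages, is part of the rule, so its presence was set on both sides. It stood at 8693 CPM in members and 7490 CPM in the others. Other macrophage identity genes went both ways. The F4/80 gene Adgre1 had 228 against 224 CPM, but of 23 measured ones 7 had an interval of the ratio above 1 and 10 below 1, and Lyve1, Folr2 (0.258) and Pf4 (0.283), of tissue-resident macrophages, were at most 0.5 times as high, while the median was 1.01. Over all 8796 genes compared, 9.38% had an interval above 1 and 9.28% below 1. Genes of both interferon lists were higher in the cells as a pool, as given below. Cxcl9, Ifit2 and Ifit3 are themselves induced by interferon. The lists were also chosen with earlier results known, so these levels describe the cells and do not test the name. Membership rested on Cxcl9 for 88 members (35.2%), which had no UMI of Ifit2 or Ifit3. The type I list summed to 7646 CPM in these 88 and to 9716 CPM in macrophages high in neither score. These groups were not chosen alike, since 31.7% of the macrophages high in neither had a UMI of Ifit3. Picking cells without Ifit UMIs favored a low type I level in the 88, and its part was not tested.

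Promoters of 6 higher or rule genes that hold a motif are printed here to show the elements that interferon-activated factors are known to bind. They were picked for holding one. The stretches end at the base before the RefSeq transcription start (mouse build GRCm38.p6) and are written 5′ to 3′ along the gene. Capitals mark an ISRE core, GAAANNGAA on either strand (TTCNNTTTC where it is reversed), or for Serpina3g a GAS, TTCNNNGAA, which reads alike on both strands and can overlap an ISRE core. Cxcl9 lies on the minus strand at chr5:92328080-92328329, its neighbor Cxcl10 on the minus strand at chr5:92348890-92349139, Ifit3 on the plus strand at chr19:34583329-34583528, Gbp2b on the plus strand at chr3:142594697-142594846, Calhm6 on the minus strand at chr10:34127973-34128122 and Serpina3g on the plus strand at chr12:104235997-104236146.
Cxcl9: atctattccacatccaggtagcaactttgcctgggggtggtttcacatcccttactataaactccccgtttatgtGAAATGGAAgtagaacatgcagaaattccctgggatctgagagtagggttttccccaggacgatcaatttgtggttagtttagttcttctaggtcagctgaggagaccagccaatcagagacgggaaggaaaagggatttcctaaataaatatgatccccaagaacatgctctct
Cxcl10: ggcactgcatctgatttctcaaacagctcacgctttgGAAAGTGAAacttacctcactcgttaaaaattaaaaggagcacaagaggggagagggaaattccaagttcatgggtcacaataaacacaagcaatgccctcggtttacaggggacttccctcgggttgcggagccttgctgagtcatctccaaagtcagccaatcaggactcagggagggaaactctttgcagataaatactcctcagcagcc
Ifit3: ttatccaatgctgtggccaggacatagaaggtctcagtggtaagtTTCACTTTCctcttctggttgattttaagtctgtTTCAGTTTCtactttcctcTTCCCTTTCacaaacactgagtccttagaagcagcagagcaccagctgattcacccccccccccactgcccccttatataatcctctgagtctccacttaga
Gbp2b: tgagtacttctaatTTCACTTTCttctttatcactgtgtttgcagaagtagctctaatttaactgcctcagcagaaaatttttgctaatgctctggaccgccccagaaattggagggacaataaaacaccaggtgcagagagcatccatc
Calhm6: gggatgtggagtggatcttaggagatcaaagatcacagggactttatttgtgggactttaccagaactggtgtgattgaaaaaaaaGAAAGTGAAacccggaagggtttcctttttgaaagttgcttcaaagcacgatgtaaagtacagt
Serpina3g: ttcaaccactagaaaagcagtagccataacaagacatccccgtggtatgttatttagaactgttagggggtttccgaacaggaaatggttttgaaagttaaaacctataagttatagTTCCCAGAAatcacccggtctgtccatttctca

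In Ifit3, 3 ISRE cores lay 155, 121 and 102 bases before the start. Cxcl9 and Cxcl10 had 1 each, 175 and 213 bases before it, Gbp2b had 1 at 136 and Calhm6 1 at 64 bases, and the GAS of Serpina3g lay 33 bases before the start. Over windows of 300 bases around the starts, 8.56% of all 32851 RefSeq promoters held an ISRE core and 8.30% a GAS. Of 63 promoters of genes at least 2 times higher in members (49 of 64 genes were matched), 22.2% held an ISRE core and 9.52% a GAS. These genes were drawn from 8796 with at least 50 UMIs in macrophages. Of the 9041 promoters of those, 7.79% held an ISRE core and 6.68% a GAS. Genes at most 0.5 times as high had 10.7% and 7.34% of 177 promoters. The type I interferon list had an ISRE core in 53.4% of 58 promoters and a GAS in 12.1%, and the interferon gamma list had 48.3% and 37.9% of 29. The MHC class II list held an ISRE core in 1 of 13 promoters (7.69%). H2-Eb1, H2-Aa, Ccl8 and Ch25h held neither motif in this window, and Ifit2 held 0 ISRE cores at both of its starts and 1 GAS at one of them. Such a match describes letters in a window and does not show binding.

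Across the whole table, 8796 genes outside the rule had at least 50 UMIs in macrophages. Of these, 64 (0.728%) were at least 2 times higher in members than in the other macrophages, and 172 (1.96%) were at most 0.5 times as high, while the median ratio was 1.0. Because the rule removed Arg1, Spp1 and Mmp12-high cells from the members, these cells lay on the other side of that comparison. Against the 584 macrophages high in neither score, where both sides lack them, 32 of 7945 genes (0.403%) were at least 2 times higher and 68 (0.856%) at most 0.5 times as high. Of the 64 higher genes, 53 could be measured in that comparison and 25 were again at least 2 times higher, and of the 172 lower genes 105 could be measured and 54 were again at most 0.5 times as high. Against the 250 Arg1, Spp1 and Mmp12-high macrophages, 230 of 6936 genes (3.32%) were at least 2 times higher and 230 (3.32%) at most 0.5 times as high.

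The 20 genes with the highest lower bounds of the ratio were of many kinds, with Dnase1l3, Serpina3g, Cxcl10, Gbp2b and Calhm6 first. Dnase1l3, which digests DNA in microparticles and chromatin, had 222 UMIs in members and 169 in the others, or 107 CPM (93.2 to 122) against 22.4 CPM (19.1 to 26.0), a ratio of 4.77 (3.89 to 5.86). Serpina3g, a protease inhibitor of activated lymphoid and myeloid cells, had 164 against 39.7 CPM, 4.13 times as much (3.52 to 4.84). The guanylate-binding protein Gbp2b had 107 against 29.4 CPM, a ratio of 3.63 (3.002 to 4.39). Calhm6, a pore protein of activated macrophages, had 193 against 60.8 CPM, a ratio of 3.18 (2.78 to 3.64). Against the macrophages high in neither score these ratios were 3.53, 3.18, 2.58 and 2.40 in the same order, each with an interval above 1.

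The other high-ranking genes were the transcription factor Batf2 (ratio 2.93), the DNA-binding family member Ifi205 (2.81), Ifit3b (3.24), Serpina3f (3.63), the peptidoglycan sensor Nod1 (3.19), the endosomal receptor Tlr12 (2.48), Usp18, which removes ISG15 from proteins (2.36), the matrix protease Mmp25 (3.15), Sectm1a (2.83), ceruloplasmin Cp (2.88) and Tmem176a (2.27). Against the macrophages high in neither score, Tlr12 (1.81) and Tmem176a (1.59) were below a factor of 2 and the others of these genes above it. Ifit3 and Ifit3b, Gbp2 and Gbp2b, and Serpina3f and Serpina3g are close copies within their families, so reads may be divided or lost between them. Hspa1a and Hspa1b, near-identical heat shock genes, had ratios of 2.05 and 2.07 (1.70 and 1.67 against those high in neither). The 20 measured heat shock and immediate-early genes had a median of 0.992.

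**Figure D2:**
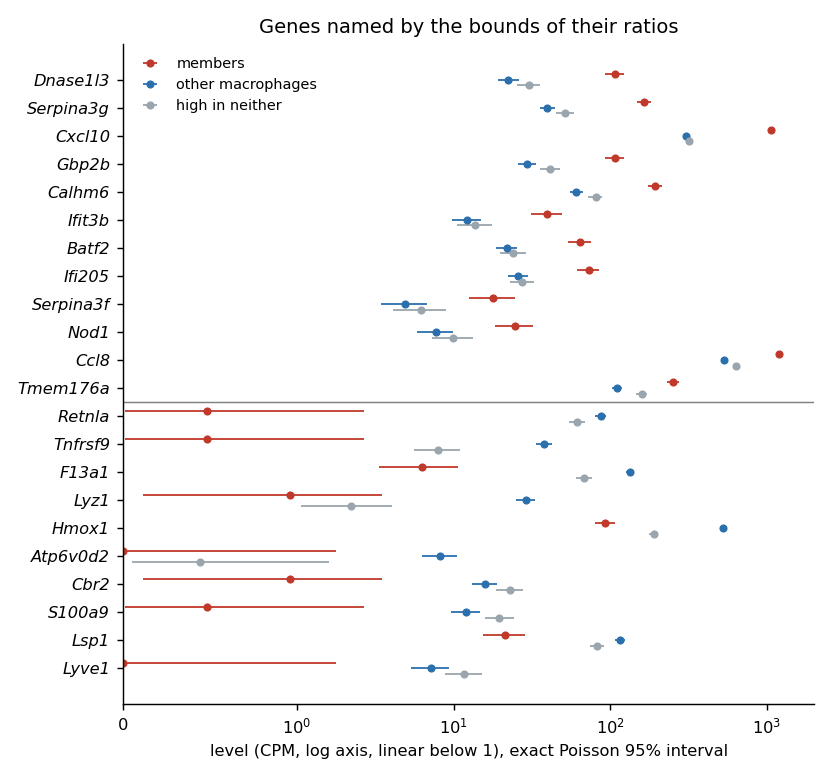
Level in CPM (log axis, linear below 1) with exact Poisson 95% intervals for 12 of the 20 genes with the highest lower bounds and the 10 genes with the lowest upper bounds of the ratio, in 250 members (red), 863 other macrophages (blue) and the 584 of them high in neither score (grey). Dnase1l3 stood at 107, 22.4 and 30.2 CPM, and F13a1 at 6.25, 134 and 67.9 CPM.

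Transcripts of a few cells can carry such ratios. The 10 members with most Dnase1l3 held 39.2% of its 222 UMIs. For Cxcl10 the 10 highest members held 42.4% of 2218 UMIs, for Ccl8 51.3% of 2475, for the oxysterol-making enzyme Ch25h 55.0% of 180 and for H2-Eb1 12.8% of 20585. The median member had 2.05 Cxcl10 UMIs per 10000 and the median other macrophage 0.899, whereas for H2-Eb1 these medians were 84.9 and 29.3.

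Of the chemokines, several that attract T cells and monocytes were higher, whereas Cxcl2, Ccl6, Ccl9 and Pf4 were lower. Cxcl10, which shares the receptor Cxcr3 with Cxcl9, stood at 1067 CPM (1023 to 1112) in members and 306 CPM in the others, a ratio of 3.49 (3.29 to 3.70). Ccl8 stood at 1191 against 533 CPM (ratio 2.23), Ccl4 at 606 against 302 CPM (2.004), Ccl5 at 1366 against 709 CPM (1.93), Ccl12 at 1042 against 560 CPM (1.86) and Ccl3 at 169 against 91.1 CPM (1.86). The neutrophil attractant Cxcl2 stood at 88.5 against 278 CPM (0.319), Ccl6 at 83.2 against 305 CPM (0.273) Ccl9 at 59.6 against 193 CPM (0.309) and Pf4 at 197 against 695 CPM (0.283). The others include the cells high for Arg1, Spp1 and Mmp12, and against macrophages high in neither score the ratios were 0.563, 0.414, 0.491 and 0.560 in the same order, so 2 of these 4 stayed at most 0.5 times as high. In that comparison Ccl8 had a ratio of 1.87, Cxcl10 of 3.35 and Ccl4 of 2.24. Of 15 measured chemokine genes, 3 were at least 2 times higher and 4 at most 0.5 times as high, where the shares over all genes were 0.728% and 1.96%. Cells other than macrophages also had Cxcl10: tumor cells had 1032 CPM of it, but 112 CPM of Cxcl9, and T and NK cells had 229 and 16.0 CPM.

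Genes induced by type I interferon were higher in members, most of them by less than a factor of 2. Of 58 measured genes of that list, 57 had a ratio above 1, 53 an interval above 1 and 8 a ratio of at least 2, with a median of 1.499 (1.38 against the macrophages high in neither score). Over all 8796 genes, 9.38% had an interval above 1 and 0.728% a ratio of at least 2, and the median was 1.0. The list summed to 11931 CPM in members, 8916 in the other macrophages and 9716 in those high in neither. In the 59 monocytes gated by Ly6c2 it summed to 13233 CPM (12840 to 13635), above the members. It was 10773 CPM in the 29 macrophages high in both scores and 9272 in the 201 proliferating ones. The 8 genes were Ifit3b, Ifi205, Usp18, Herc6, Ifi213, Slfn4, Cmpk2 and Tnfsf10. Common markers of this response lay near the median of the list. Isg15, a ubiquitin-like protein, stood at 64.5 against 44.4 CPM (ratio 1.45, 1.18 to 1.78) and at 56.2 CPM in those high in neither (ratio 1.15, 0.923 to 1.42), and Rsad2 (viperin) at 152 against 101 CPM (ratio 1.51). The factor Irf7 stood at 455 against 289 CPM (ratio 1.58).

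The interferon gamma list had a higher median ratio. Of 34 measured genes 30 had a ratio above 1, 28 an interval above 1 and 8 a ratio of at least 2, and the median was 1.75 (1.53 against those high in neither). Such an interval was found for 9.38% of all genes and such a ratio for 0.728%. The list summed to 7439 CPM in members and 4315 in the others. Besides Cxcl10, Serpina3g, Gbp2b and Batf2, the 8 genes were Gbp5 (2.31), the master regulator of MHC class II genes Ciita (2.17), Gbp3 (2.03) and the immunity-related GTPase Iigp1 (2.01). The transcription factor Irf1 stood at 184 against 112 CPM (1.65). Exceptions were Nos2, the inducible nitric oxide synthase, at 28.9 against 49.5 CPM (0.583, but 1.52 against those high in neither), and Cd274, which encodes PD-L1, at 104 against 108 CPM (0.968).

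The receptors and kinases that receive the signal differed less. For 18 measured interferons, receptors and JAK-STAT genes the median ratio was 1.08 and 1 gene, Usp18, passed a factor of 2. Ifngr1 had a ratio of 0.952 (0.826 to 1.09), Ifngr2 1.13, Ifnar1 0.949 and Ifnar2 0.944. The feedback inhibitor Socs1 had 1.97 (1.58 to 2.44). Transcripts of Ifng were 0 in the 1113 macrophages, at which a level of up to 0.312 CPM is allowed, and 784 CPM in 86 T and NK cells. The 1113 macrophages had 9 UMIs of Ifnb1, 4 of them in members. Of 19 nucleic acid sensors and adaptors, 17 had a ratio above 1 and 1, Tlr3, of at least 2 (2.16), with a median of 1.33. A ratio of at least 2 was found for 0.728% of all genes.

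Antigen presentation differed between its classes. Of 13 measured genes of MHC class II presentation, 11 had a ratio above 1 and 9 an interval above 1, and 2 were at least 2 times higher (H2-Eb1 2.04 and Ciita 2.17), with a median of 1.45. Among all genes, 9.38% had an interval above 1 and 0.728% were at least 2 times higher. Against macrophages high in neither score 0 reached 2, with H2-Eb1 at 1.58, Ciita at 1.65 and a median of 1.27. H2-Aa stood at 10595 CPM in members and 5555 in the others, a ratio of 1.91 (1.88 to 1.94), and the invariant chain Cd74 at 20666 against 12567 CPM (1.64). Summed over the list, class II transcripts made up 61355 CPM in members, 36620 in the others and 43138 in those high in neither. Of 20 measured MHC class I and processing genes 18 had a ratio above 1 and 0 reached 2, with a median of 1.19. H2-K1 had 2979 against 2674 CPM (1.11), the peptide transporter Tap1 222 against 160 CPM (1.38), and H2-D1 3009 against 3168 CPM (0.950).

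Genes of lipid-associated and Arg1-type macrophages were lower, as the choice of cells set in part. Of 36 measured genes outside the rule, 20 were at most 0.5 times as high as in the other macrophages (1.96% of all genes) and the median ratio was 0.469. Against the macrophages high in neither score the median was 0.739 and 5 genes were at most 0.5 times as high (0.856% of all genes). Hmox1, which degrades heme, stood at 92.8 CPM in members, 526 in the others and 189 in those high in neither. The lipid chaperone Fabp5 stood at 240, 701 and 423 CPM, and Hilpda, a lipid droplet protein induced by hypoxia, at 39.9, 171 and 71.4 CPM in the same order. The phagocytic receptor Trem2 differed less (519, 719 and 620 CPM), and Apoe did not share the difference, with 30243 against 29935 CPM (ratio 1.01).

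**Figure D3:**
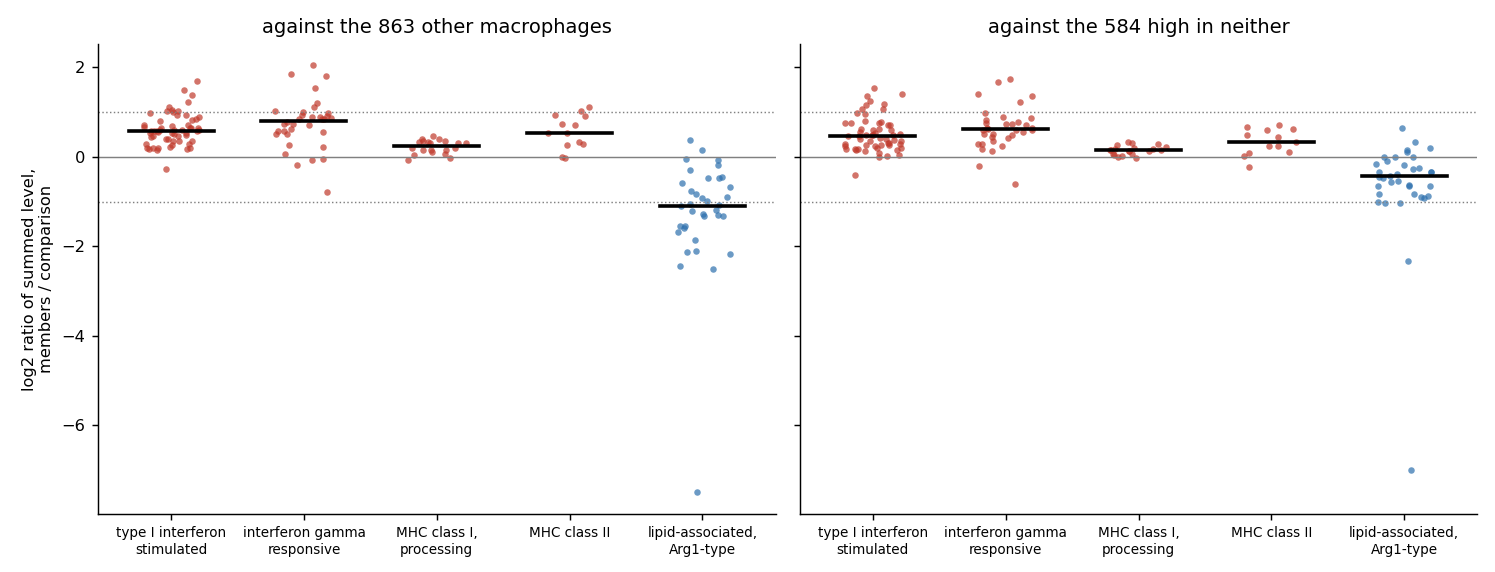
Log2 ratio of the level in 250 members to that in 863 other macrophages (left) and in the 584 of them high in neither score (right), 1 point for each measured gene of 5 lists, with the median as a bar and dotted lines at ratios of 2 and 0.5. Points of the 4 interferon and MHC lists lie mostly above 0, with medians of ratio 1.499, 1.75, 1.19 and 1.45 on the left, and the lipid-associated list has a median of 0.469 on the left and 0.739 on the right.

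Among the genes with the lowest upper bounds, F13a1, a clotting factor subunit and here one of the monocyte genes, had 13 UMIs in members and 1013 in the others, a ratio of 0.0466 (0.0247 to 0.0801), and 0.0921 against those high in neither. The leukocyte protein Lsp1 had 44 and 872 UMIs, a ratio of 0.183. Tnfrsf9, the costimulatory receptor 4-1BB, had 1 and 287 UMIs, a ratio of 0.0127 (0.000319 to 0.0711). Retnla, Lyz1, S100a9 and Lyve1 rested on few cells: 656 UMIs of Retnla in the other macrophages came from 8 cells, 357 of them from 1, those of Lyz1 from 13, S100a9 from 5 and Lyve1 from 11 cells. Lyve1, of perivascular macrophages, and Atp6v0d2, a V-ATPase subunit, had 0 UMIs in members, which allows up to 1.44 CPM, against 7.15 and 8.21 CPM in the others, and the intervals of their ratios reached 0.257 and 0.223. In the macrophages high in neither Atp6v0d2 stood at 0.441 CPM, so its higher level lay in the Arg1, Spp1 and Mmp12-high cells.

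Along the score, the lists took different courses. In macrophages with a score of 0, in the lower and upper parts of those below the limit, between the top 25% and 10% and in the top 10%, the interferon gamma list summed to 3192, 3858, 5560, 6494 and 8448 CPM. MHC class II stood at 27963, 35214, 45267, 56283 and 61628 CPM. The type I list was highest just above the limit and lower again in the top 10%, with 6947, 8149, 11324, 12215 and 11179 CPM. The lipid-associated list stood at 15681, 15078, 10516, 9527 and 9135 CPM, and the share of Arg1, Spp1 and Mmp12-high cells was 33.3, 39.2, 17.1, 12.6 and 7.14%. Depth differed too, with medians of 3794, 11203, 8644, 8200 and 8166 UMIs per cell, and its part in these courses was not tested.

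**Figure D4:**
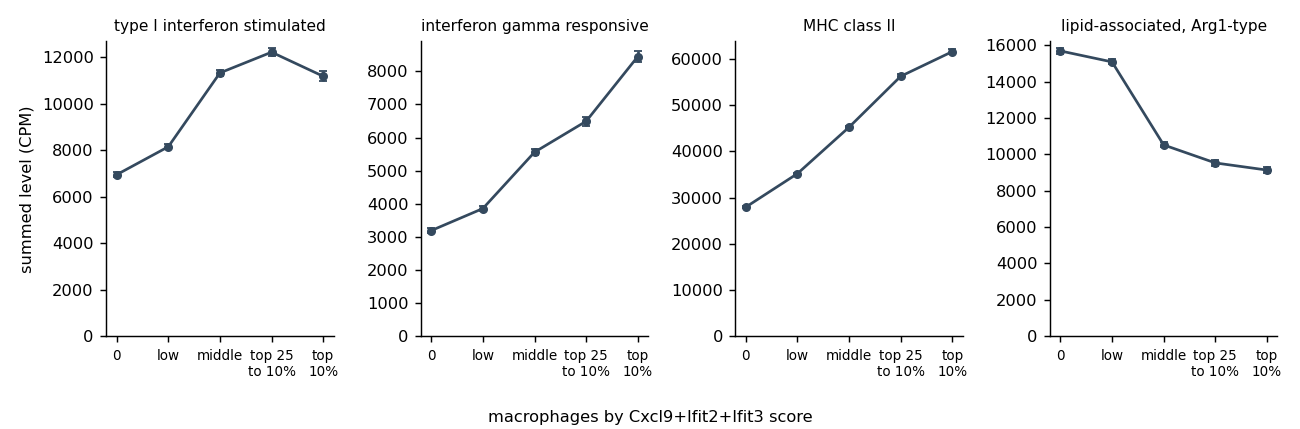
Summed level in CPM, with exact Poisson 95% intervals, of 4 gene lists without the rule genes, in 297, 268, 269, 167 and 112 macrophages from a score of 0 (left) to the top 10% (right). The interferon gamma and MHC class II lists are highest in the top 10% (8448 and 61628 CPM), whereas the type I list is highest between the top 25% and 10% (12215 CPM).

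Most members had UMIs of both parts of the score, and those with only one part differed in the rest of the program. With UMIs of Cxcl9 and of Ifit2 or Ifit3 there were 149 members (59.6%), with Cxcl9 only 88 and with Ifit2 or Ifit3 only 13 (5.2%), at medians of 8769, 7355 and 2994 UMIs. The split uses rule genes and at this depth a cell can lack a UMI of a gene it transcribes. The summed type I level was 13854 CPM with both, 7646 with Cxcl9 only and 21095 with Ifit only. It was 9716 CPM in macrophages high in neither, which were not split by Ifit UMIs. MHC class II stood at 60085, 66543 and 24023 CPM, and the interferon gamma list at 8261, 5841 and 8239 CPM.

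Set against each other, the Cxcl9-only and the Ifit-only members differed in named genes by large factors. All 37 type I genes with at least 30 UMIs were lower in Cxcl9-only members, with a median ratio of 0.233 where 3012 genes had a median of 1.03. Usp18 stood at 19.8 against 432 CPM (14 and 23 UMIs). Rsad2 stood at 75.05 against 676 CPM (53 and 36 UMIs) and Irf7 at 227 against 1201 CPM (160 and 64 UMIs). All 10 class II genes with at least 30 UMIs were higher in Cxcl9-only members, with a median of 3.0, and H2-Eb1 stood at 10757 against 2459 CPM. Below the minimum, the type I gene Oas1a (19 and 1 UMIs) had a ratio of 1.43 and H2-Oa (8 and 1 UMIs) of 0.604. Ly6c2, which marks inflammatory monocytes, stood at 9.91 CPM in Cxcl9-only and 1933 CPM in the 13 Ifit-only members (7 and 103 UMIs). The 16 monocyte genes together stood at 779 against 4279 CPM. How these UMIs spread over the 13 cells was not examined.

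Cells were also chosen by each part of the score alone, which gave larger groups. Cxcl9 alone chose 251 macrophages and Ifit2 and Ifit3 alone 228, again without Arg1, Spp1 and Mmp12-high cells, and 68 cells were in both, 27.1% of the first and 29.8% of the second. The first choice shared 212 cells with the members (84.8%) and the second 105 (42.0%). Median depths were 8968 UMIs in the first and 5997 in the second, and the part of depth was not tested. Chosen by Cxcl9, 0 of 58 type I genes were at least 2 times higher and their median ratio to the remaining macrophages was 1.13, while 3 of 13 class II genes were (median 1.56). Chosen by Ifit2 and Ifit3, 45 of 58 type I genes were at least 2 times higher (median 2.49) and 0 of 13 class II genes (median 1.09). Over 8796 genes 56 (0.637%) and 192 (2.18%) were at least 2 times higher under these choices.

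Single genes showed on which side they stood. Isg15 had a ratio of 1.02 (0.813 to 1.27) in cells chosen by Cxcl9 and 4.66 (3.87 to 5.61) in cells chosen by Ifit2 and Ifit3. Slfn4, a myeloid interferon-induced gene, had 0.348 and 5.07. H2-Eb1 had 2.15 and 1.18, Dnase1l3 4.66 and 1.35, Gbp2b 4.11 and 1.79 and Ccl8 2.17 and 1.15. Ly6c2 stood at 0.266 in the first and 3.15 in the second. Cxcl10 (2.39 and 3.67) and Calhm6 (2.99 and 2.97) were at least 2 times higher under both choices, and the interferon gamma list had medians of 1.57 and 1.67. Both choices share most of the macrophages they were compared with.

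**Figure D5:**
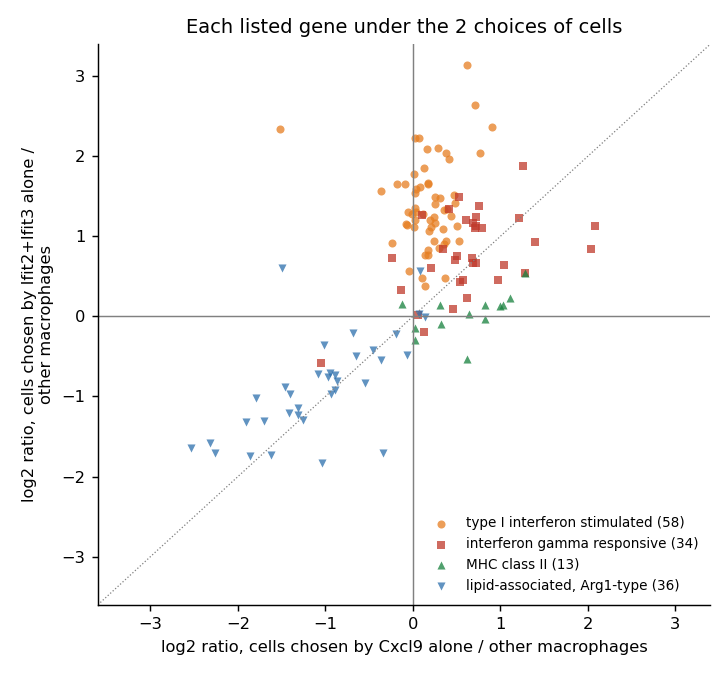
Each point is a gene of 4 lists (58, 34, 13 and 36 genes), with the log2 ratio to the remaining macrophages in cells chosen by Cxcl9 alone on the horizontal axis and in cells chosen by Ifit2 and Ifit3 alone on the vertical axis, and a dotted line where both are equal. Retnla (ratios 0.00519 and 0.00764) lies outside the axes. All 58 type I genes (circles) lie above the dotted line, MHC class II genes (upward triangles) mostly below it, and lipid-associated genes (downward triangles) mostly below 0 on both axes.

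Markers of other cell types were read in the members. Of 22 T and NK cell genes, 6 had 0 UMIs (Trac, Trbc1, Lck, Ncr1, Ifng and Skap1), Cd3e had 2 and Nkg7 5, and the list summed to 1458 CPM in members and 819 in the others, of which Ccl5 made up 93.7% in members. Klrk1, the NKG2D receptor gene, had 91 UMIs (ratio 2.07) and Ighm, the IgM heavy chain, 158 (2.19), while Cd79a had 0. Leaving out macrophages with UMIs of Cd3d, Cd3e, Cd3g, Trac or Nkg7 left 242 members, 64 genes at least 2 times higher and a median type I ratio of 1.46. The MC38 tumor cell genes, as a sum without rule genes, had a median over cells of 42.8 per 10000 in members and 56.0 in the others. Dendritic cell genes had 13.2 against 11.4, monocyte genes 8.40 against 9.17, fibroblast genes 2.26 against 2.79, neutrophil genes 0.626 against 0 (but 210 against 381 CPM as a sum) and B cell and endothelial genes 0 in both. Of the 18 dendritic cell genes, 13 were under the minimum of UMIs. The list sums to 1486 CPM over all 250 members. It holds Bst2, also a type I gene, which had 1121 CPM in the Cxcl9-only members alone, so its share of that sum is not given. Simulated doublets marked 5 of 250 members (2%) and 15 of 863 others (1.74%). The part of free RNA and of doublets in the ratios was otherwise not tested.

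The V-ATPase and oxysterol genes at the center of the study were also read. Of 18 measured V-ATPase subunits and accessory proteins, 0 were at least 2 times higher and 1 (Atp6v0d2) at most 0.5 times as high, with a median ratio of 0.987. The shares over all 8796 genes were 0.728% and 1.96%. Atp6v0a1 had 25 UMIs in members, 12.03 CPM (7.78 to 17.8), against 15.4 CPM in the others, a ratio of 0.783 (0.487 to 1.21). Among 27 LXR, oxysterol and cholesterol genes 6 had an interval above 1 and 6 below 1, with a median of 0.995. Over all genes, 9.38% had an interval above 1 and 9.28% below 1. Ch25h, which makes 25-hydroxycholesterol and is itself induced by interferon, stood at 86.6 against 37.1 CPM (ratio 2.33, 1.93 to 2.83). The nuclear receptor LXR alpha (Nr1h3) stood at 43.8 against 24.2 CPM (ratio 1.81, 1.39 to 2.33, but 0.886 among macrophages at or below the median depth), and Abca1, a cholesterol exporter, at 105 against 162 CPM (0.647).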

How the data were processed

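The authors deposited a matrix of raw UMI counts (genes by called cells) of 1 10x Genomics 3' v3.1 library. The file header names Cell Ranger 5.0.1, and the methods name CellRanger V3 with GRCm38/mm10. All counts per cell were used as deposited, from cells with 200 or more genes and no more than 20% of UMIs from mitochondrial genes. Doublets were kept, and scored for an alternative. The label gave the group (WT, taken as the shNTC pool). Levels are summed UMIs per 1000000 (CPM), and genes were compared when at least 50 UMIs lay in the groups compared. For Cxcl9-only against Ifit-only members this minimum was 30 UMIs. Intervals are exact (Poisson, Clopper-Pearson, and conditional binomial for ratios), and where a count was 0 the limit is that of 3 counts. With 1 library no test was run. The members and gene lists were chosen with earlier results of these data known. Named were rule genes, listed genes with many UMIs or large ratios, and the 20 and 10 genes with the highest lower and lowest upper bounds of the ratio; other genes were named after their values were seen. T and NK cells (86) and tumor cells (1823) were gated by markers. Promoters came from RefSeq (GRCm38.p6). Ratios were tested on simulated data. The tools were scikit-learn 1.9.0, scipy 1.17.1, matplotlib 3.10.9, pandas 2.3.3, numpy 2.4.6 and Python 3.11.15. Some genes of the lists are not reported here.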

Additional observations from a re-analysis of the deposited data

How the results depend on the processing

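No paired analysis was possible because there was 1 library, and for the same reason no replicate could be left out. The 8 counts were recomputed under 16 alternatives and 3 chosen after seeing the data (cells above or at most at the median depth, and cells without Ly6c2 UMIs). The 250 members became 104 with the top 10% and 480 with the top 50% of the score, and 118 and 132 above and at most at the median depth. The 64 genes at least 2 times higher became 171 and 27 with minimums of 20 and 200 UMIs, 146 with means over cells, 32 against macrophages high in neither score and 192 with Ifit2 and Ifit3 alone. The 172 genes at most 0.5 times as high became 372 and 59 with those minimums, 340 with means over cells, 68 against neither, 430 with the top 10% and 105 after thinning each cell to 3000 UMIs. The 8 type I genes became 4 with 200 UMIs, 13 with means over cells, 5 with the top 10%, 0 with Cxcl9 alone and 45 with Ifit2 and Ifit3 alone. The 8 interferon gamma genes became 5 against neither and 13 with Ifit2 and Ifit3 alone. The 2 class II genes became 1 with means over cells and with the top 10%, and 0 with Arg1-high cells kept, after thinning, against neither, at most at the median depth and with Ifit2 and Ifit3 alone. The 20 lipid-associated genes became 5 against neither and 13 with the top 10%. The count of 0 MHC class I genes was 0 under all 19. Over the 19 settings, median ratios ran from 1.13 to 2.49 (type I), 1.53 to 1.85 (interferon gamma), 1.11 to 1.25 (class I), 1.09 to 1.67 (class II) and 0.453 to 0.743 (lipid-associated). Of 1633 ratios of 86 genes, 1256 stayed within the interval of the reported one, 370 moved outside it and 7 of genes past a factor of 2 reversed. These were S100a9 (1.81 with at least 1000 genes, 1.82 with at least 3000 UMIs, 1.67 with Cxcl9 alone, 3.25 after thinning), Slfn4 (0.348 with Cxcl9 alone, 0.844 above the median depth) and Pdcd1lg2 (0.983 with Ifit2 and Ifit3 alone). Of the S100a9 UMIs, 1 lay in a member and 90 in 5 other macrophages. Under a factor of 2, 11 ratios of 7 genes crossed 1, among them Rsad2 (0.942 with Cxcl9 alone), Cd74 (0.979 with Ifit2 and Ifit3 alone), Nos2 (1.52 against neither) and Nr1h3 (0.886 at most at the median depth). The causes of the other moves were not tested.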

Other observations

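The members had more members among their nearest neighbors than other macrophages had, without being separate. With the rule genes removed, among the 20 nearest neighbors of each macrophage (15 components of 1000 variable genes, a description added after seeing the data), 37.6% of the members' neighbors were members, against 16.4% of the neighbors of other macrophages, where members were 22.5% of the cells. With the interferon and MHC class II lists also removed, these shares were 35.2% and 18.8%. The rule kept Arg1, Spp1 and Mmp12-high cells out of the members, and the lipid-associated list stayed in both searches. The choice of cells thus favored such an excess, and its part was not tested.

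Macrophages outside the members also held parts of the program. In the 29 cells high in both scores, Cxcl9 stood at 2529 CPM, Rsad2 at 406, the T cell and monocyte attractant Ccl4 at 943 and Cd274 at 227, against 152 (Rsad2), 606 (Ccl4) and 104 CPM (Cd274) in members. The 201 proliferating macrophages left out by the rule had 988 CPM of Cxcl9 and 677 of Cxcl10. The 59 monocytes gated by Ly6c2 had 262 CPM of Cxcl9.

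Among immune ligands, Pdcd1lg2, which encodes PD-L2, had 24 UMIs in members and 37 in the other macrophages (ratio 2.36, 1.35 to 4.04, but 0.983 in cells chosen by Ifit2 and Ifit3 alone), while Cd274 had a ratio of 0.968 (0.830 to 1.13). The complement genes C3 and Cfb stood at 204 and 356 CPM in members and at 117 and 205 CPM in the others.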
